A study of Mus musculus with 2 samples.

Results

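Regulatory T cells of MC38 tumours were taken here as droplet barcodes that carried RNA of *Foxp3*, the transcription factor that defines the lineage, together with RNA of the CD3 complex. A member had at least 1 UMI (unique molecular identifier, 1 captured transcript) of *Foxp3*, at least 1 UMI of *Cd3d*, *Cd3e* and *Cd3g* together, and none of *Cd8b1* and *Trdc*, which mark CD8 and gamma-delta T cells. It also had at least 500 UMIs, at least 200 genes and at most 10% mitochondrial UMIs. The rule found 155 barcodes, 104 of 9370 in the UEIS LSL library and 51 of 9442 in the UEIS KI library. The rule reads *Foxp3* and the CD3 genes themselves, so their levels describe the members and support nothing else.

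The cells came from subcutaneous tumours of MC38, a mouse colon adenocarcinoma line, implanted into C57BL/6 mice of the groups UEIS LSL and UEIS KI. The tumours were digested with collagenase II and DNase I, CD45+ cells were sorted, and 1 library per group was made with 10x 3' chemistry. The sources used here do not expand the names, do not give the age of the mice, the driver of any Cre or the cells that carry the allele, and do not say whether tumours were pooled. The series title calls UEIS a micropeptide and gives the cGAS-STING pathway, with the type I interferon it induces, as what it weakens. No gene symbol of the matrices was UEIS, so the labels could not be checked by its own RNA. With 1 library per group no difference between UEIS LSL and UEIS KI was tested, and the 95% intervals given for them cover counting error only.

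Regulatory T cells restrain other T cells. They hold the high-affinity interleukin 2 receptor (CD25, encoded by *Il2ra*), which lets them consume interleukin 2, and the inhibitory receptor CTLA-4, which takes costimulatory ligands off antigen-presenting cells. The transcription factor Helios (*Ikzf2*) is found in most of them. Those in tumours commonly carry the costimulatory TNF receptors OX40 (*Tnfrsf4*), GITR (*Tnfrsf18*) and 4-1BB (*Tnfrsf9*), the costimulator ICOS and, in an activated state, *Klrg1* and granzyme B.

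The label was checked with the 3 markers that the rule had not used. None of the 155 members lacked *Il2ra*, *Ikzf2* and *Ctla4* altogether. All 3 were seen in 59 of the 104 UEIS LSL members (56.7%) and 21 of the 51 UEIS KI members (41.2%). Helios RNA was seen in 95 and 43 members, *Ctla4* in 87 and 44, and *Il2ra* in 74 and 28. The T cell receptor alpha constant gene *Trac* was seen in 96 and 38 members, and *Cd4*, a gene with low RNA in T cells, in 31 and 15. The rule itself left out barcodes with *Cd8b1*, so *Cd8a* is not an independent check here. Defining markers of other lymphocytes were rare, with *Cd8a* in 1 and 0 members, the B cell genes *Cd79a* and *Ms4a1* in 0 and 1 each, and *Ncr1* and *Klrb1c* of natural killer cells and *Krt8* of epithelial tumour cells in none of either library. Other genes of those lists were not absent: the immunoglobulin gene *Ighm* was seen in 65 and 24 members, *Cd79b* in 21 and 7, and *Tyrobp*, shared by natural killer and myeloid cells, in 95 and 36. The part of other cells' RNA in these was not tested. Beside these T cell genes, RNA of macrophages was present in most members.

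The macrophage RNA was uneven between the libraries. The complement genes *C1qa*, *C1qb* and *C1qc*, which macrophages express strongly, together reached at least 10 UMIs in 75 of 104 UEIS LSL members (72.1%) and 25 of 51 UEIS KI members (49.0%). Among T barcodes of the same kind without *Foxp3* the shares were 61.5% and 44.1%, while among all barcodes kept they were close together at 63.9% and 66.5%. Members with at least 10 C1q UMIs had a median depth of 17237 UMIs in UEIS LSL and 16027 in UEIS KI. Macrophage barcodes, here those with at least 10 C1q UMIs and no CD3 UMI, had 9574 and 10322. Members with fewer than 10 C1q UMIs were shallower, with medians of 5437 and 2105.5 UMIs. The macrophage marker list took 4.82% and 4.78% of UMIs in the members with much C1q, near the 5.54% and 5.15% of macrophage barcodes, and still 1.97% and 1.40% in the members with little. Of the barcodes with the highest doublet scores, 15 and 11 were members, and all but 1 of them had at least 10 C1q UMIs. They were 14.4% of UEIS LSL and 21.6% of UEIS KI members, against 7.72% and 8.02% of all barcodes kept. Among members with at least 10 C1q UMIs the shares were 18.7% and 44%, against 10.2% and 10.1% of macrophage barcodes. Whether a member with much C1q was a pair of cells in 1 droplet or a T cell in free macrophage RNA was not tested. Values are therefore given for all members and again for the 29 UEIS LSL and 26 UEIS KI members with fewer than 10 C1q UMIs, called low-C1q members below.

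**Figure D1:**
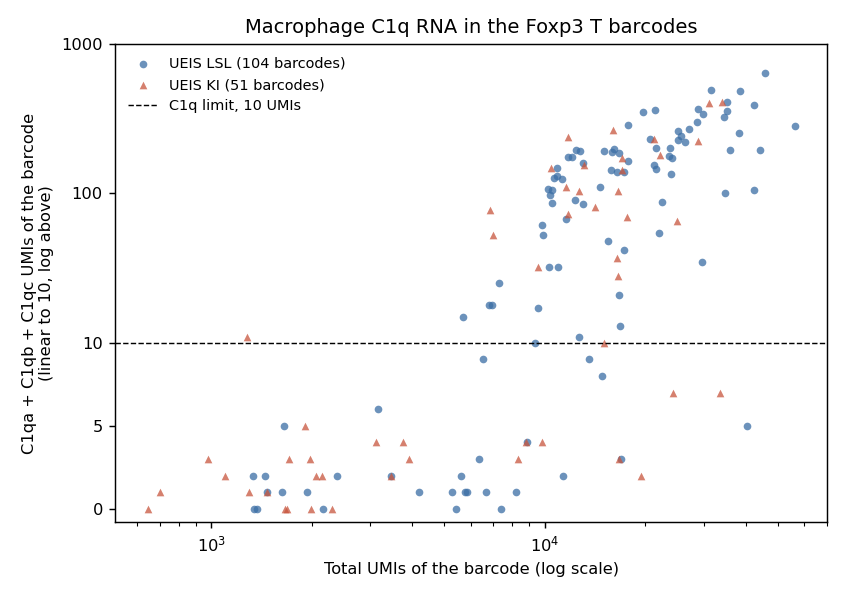
Each point is 1 *Foxp3* T barcode, with its total UMIs on the x axis and its summed C1q UMIs on the y axis (scales as marked on the axes), for UEIS LSL (104 barcodes) and UEIS KI (51 barcodes). The dashed line is the limit of 10 C1q UMIs; 75 UEIS LSL and 25 UEIS KI barcodes lie at or above it, mostly deep ones.

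The limit did not pass through a gap. C1q UMIs numbered 5 to 9 in 6 UEIS LSL and 3 UEIS KI members, and 10 to 19 in 7 and 2. None were seen in 5 and 5, and at least 100 in 52 and 14. The T cell receptor and CD3 genes gave 15 UMIs per member in UEIS LSL and 9.10 in UEIS KI. In low-C1q members these were 12.2 and 9.35, and in members with much C1q 16.1 and 8.84. The CD3 genes that the rule used gave 7.91 and 4.57 of these UMIs per member, so the sums are a description only.

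*Foxp3* was read at the edge of detection. On chromosome X (7573644 to 7595245, GRCm38) it gave 231 UMIs in UEIS LSL members and 84 in UEIS KI members, or 133 and 149 CPM (UMIs per 1000000 UMIs of the class). Exactly 1 UMI was seen in 39 of 104 and 29 of 51 members, and the highest barcodes had 11 and 5. Just outside the rule, 18 and 9 barcodes had *Foxp3* but no CD3 UMI, and 7 and 3 had both along with *Cd8b1* or *Trdc*. *Foxp3* was seen in 7 of 60 UEIS LSL (11.7%) and 2 of 31 UEIS KI (6.45%) CD8 T barcodes. In macrophage barcodes it was seen in 15 of 5693 (0.263%) and 7 of 6155 (0.114%), at the median depths given above. Among the *Foxp3* barcodes without CD3, *Ctla4* was seen in 3 of 18 and 1 of 9, *Ikzf2* in 3 and 4, and *Il2ra* in 1 and 2.

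Members with a single *Foxp3* UMI carried the other markers about as often as the rest. *Ikzf2* was seen in 35 of 39 UEIS LSL members with 1 *Foxp3* UMI (89.7%) and in 60 of 65 with more (92.3%). In UEIS KI these were 24 of 29 (82.8%) and 19 of 22 (86.4%). *Ctla4* was seen in 35 of 39 and 52 of 65 in UEIS LSL, and in 24 of 29 and 20 of 22 in UEIS KI. *Il2ra* was seen in 28 of 39 against 46 of 65, and in 16 of 29 against 12 of 22.

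The first comparison was of the members' frequency. *Foxp3* T barcodes made up 1.11% (exact interval 0.908 to 1.34) of UEIS LSL barcodes and 0.540% (0.402 to 0.710) of UEIS KI barcodes. The log2 ratio of UEIS KI over UEIS LSL was -1.04 (-1.55 to -0.54). Nearly all of that gap lay in members with macrophage RNA. Low-C1q members were 0.309% (0.207 to 0.444) and 0.275% (0.180 to 0.403) of barcodes, a log2 ratio of -0.17 (-0.99 to 0.65). Members with much C1q were 0.80% and 0.265%, a log2 ratio of -1.60 (-2.31 to -0.93). T barcodes without *Cd8b1* and *Trdc* were also fewer in UEIS KI, at 2.41% against 4.04%. Those of them without *Foxp3* had the same split by C1q as the members. They numbered 106 in UEIS LSL and 99 in UEIS KI with little C1q, and 169 and 78 with much. Barcodes that had CD3 and *Cd8b1* showed the same direction, at 0.328% against 0.640%. With fewer than 10 C1q UMIs they were 0.201% in UEIS KI and 0.320% in UEIS LSL, a log2 ratio of -0.67 (-1.58 to 0.21).

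As a share of T barcodes without *Cd8b1* and *Trdc* the members differed less between the libraries than as a share of all barcodes. They were 104 of 379 (27.4%, interval 23.0 to 32.2) in UEIS LSL and 51 of 228 (22.4%, 17.1 to 28.3) in UEIS KI. The interval of their log2 ratio, -0.29, ran from -0.81 to 0.20. Among barcodes with little C1q the shares were 21.5% of 135 and 20.8% of 125, a log2 ratio of -0.047 (-0.87 to 0.77). Among those with much C1q they were 30.7% of 244 and 24.3% of 103. The intervals within T barcodes overlapped at both C1q levels, and those of the low-C1q members allow a difference of either sign. Depth moves such shares, because a deeper barcode has more chances to show a *Foxp3* UMI. When every barcode was thinned to 1000 UMIs, *Foxp3* was left in 11 of 169 T barcodes in UEIS LSL (6.51%) and 10 of 118 in UEIS KI (8.47%), too few to order them. Requiring 2 *Foxp3* UMIs left 65 and 22 members and a log2 ratio within T barcodes of -0.83. That value lies below the interval of -0.81 to 0.20 for all members.

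**Figure D2:**
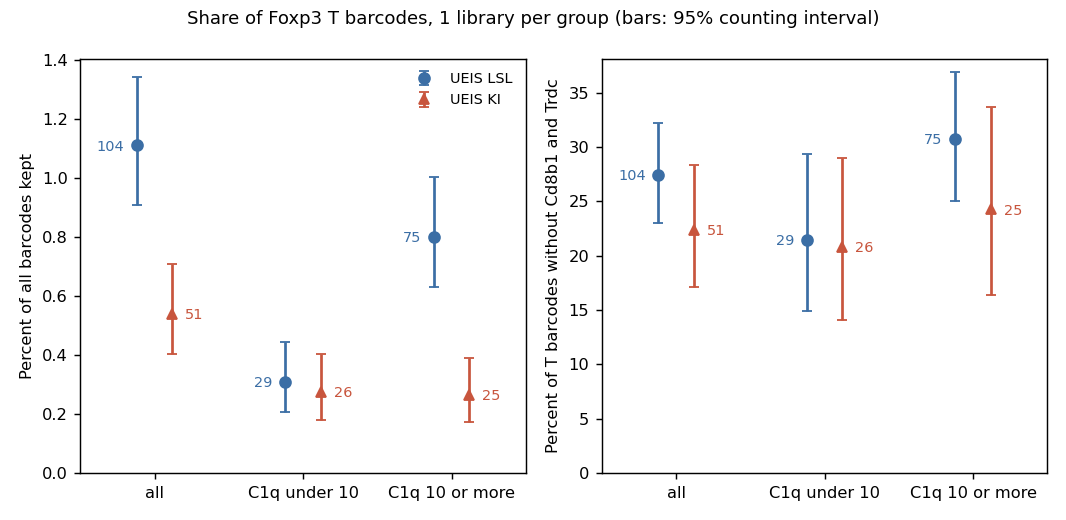
Shares of *Foxp3* T barcodes in percent with exact 95% intervals (counting error only), of all barcodes kept (one panel) and of T barcodes without *Cd8b1* and *Trdc* (the other), for UEIS LSL and UEIS KI and with the numbers of barcodes printed. Of all barcodes the intervals of the libraries are apart for all members (1.11% and 0.540%) and overlap for low-C1q members (0.309% and 0.275%); within T barcodes they overlap throughout.

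The second comparison set the members against T barcodes without *Foxp3*, *Cd8b1* and *Trdc* within each library, using only barcodes with fewer than 10 C1q UMIs. It held 29 members against 106 T barcodes without *Foxp3* in UEIS LSL and 26 against 99 in UEIS KI. Both libraries served as replicates of the cell class, which leaves 1 residual degree of freedom. The reference class was not free of regulatory T cells: 2 or all 3 of *Il2ra*, *Ikzf2* and *Ctla4* were seen in 28 of its 106 UEIS LSL barcodes and 18 of its 99 UEIS KI barcodes, and none in 50 and 54.

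Of 4588 genes, edgeR's quasi-likelihood test called 1 higher (0.0218%) and 4 lower (0.0872%) in members at a Benjamini-Hochberg adjusted p under 0.05, and 348 had an unadjusted p under 0.05. Together the 5 genes are 0.109% of those tested. A count of genes at least 1.5-fold apart in both libraries, with counting intervals clear of 1, found 66 higher (1.44%) and 32 lower (0.697%), or 2.14% together. Genes of the rule were left out of both. Of the regulatory T cell identity list 9 of 15 tested genes passed that count and none was lower, and the list's median log2 fold was 1.06 against -0.01 over all genes. None of the 15 passed edgeR's adjusted threshold. Of the effector list 5 of 26 were higher and 1 lower, with a median of 0.48.

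*Gzmb*, the cytotoxic protease granzyme B (chromosome 14, 56258838 to 56262260), was the gene called higher. It stood at 178 CPM in UEIS LSL members against 26.5 in T barcodes without *Foxp3*, and at 737 against 111 CPM in UEIS KI. Its log2 fold was 2.67 (SE 0.25), with an adjusted p of 0.0195 by edgeR's quasi-likelihood test, and over the alternative settings this p ranged from 2.52e-15 to 0.455. The members did not share it evenly. It was seen in 10 of 29 and 10 of 26 members, and 1 UEIS KI barcode held 90 of the 117 UMIs. In the reference class it was seen in 9 of 106 and 17 of 99 barcodes, with at most 5 UMIs in any.

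The costimulatory TNF receptors were higher in members in both libraries. *Tnfrsf4* (chromosome 4, 156013843 to 156016612) was at 763 CPM in UEIS LSL members against 164, and at 642 against 217 in UEIS KI. *Tnfrsf18*, its neighbour (156026164 to 156028895), was at 397 against 184 and at 504 against 232 CPM. *Tnfrsf9*, on the same chromosome (150914562 to 150946102), was at 768 against 212 and at 661 against 255 CPM. *Tnfrsf4* and *Tnfrsf9* came close to edgeR's threshold, with log2 folds of 1.85 (SE 0.23) and 1.57 (SE 0.21) and an adjusted p of 0.051 each by the quasi-likelihood test. *Tnfrsf18* had a log2 fold of 1.06 (SE 0.20) and an adjusted p of 0.172 by that edgeR test. Macrophage barcodes held 0.9 and 0.5 CPM of *Tnfrsf4* and 27.6 and 37.4 of *Tnfrsf9*.

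The costimulatory receptor cluster on chromosome 1, which holds *Cd28* (60716800 to 60773359), *Ctla4* (60887000 to 60915832) and *Icos* (60977927 to 61000320), was uneven. *Ctla4* was at 616 CPM in UEIS LSL members against 189, and at 680 against 265 in UEIS KI, a log2 fold of 1.48 (SE 0.20) with an adjusted p of 0.051 by edgeR's quasi-likelihood test. *Icos* was at 387 against 212 and at 548 against 244 CPM, a log2 fold of 0.96 (edgeR adjusted p 0.221). *Cd28* was at 168 against 163 CPM in UEIS LSL and 258 against 305 in UEIS KI, and so did not separate the classes. *Ctla4* was at 0.5 and 0.3 CPM in macrophage barcodes.

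*Ikzf2* (chromosome 1, 69531214 to 69687245) was seen in 27 of 29 low-C1q members of UEIS LSL and 20 of 26 of UEIS KI, against 35 of 106 and 23 of 99 T barcodes without *Foxp3*. Its levels were 544 against 138 and 466 against 164 CPM, a log2 fold of 1.70 (SE 0.23; edgeR adjusted p 0.051). *Il2ra* (chromosome 2, 11642807 to 11693193) was at 219 against 51.4 CPM in UEIS LSL and at 151 against 75.6 in UEIS KI, a log2 fold of 1.53 (edgeR adjusted p 0.267). *Ikzf4*, a relative of Helios, and *Lrrc32*, which encodes the latent TGF-beta receptor GARP, had log2 folds of 2.28 and 2.24 (edgeR adjusted p 0.302 and 0.304).

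Detection was compared once more with every barcode thinned to 1000 UMIs, which left out no UEIS LSL and 3 UEIS KI low-C1q members and 8 and 6 T barcodes without *Foxp3*. *Ikzf2* was then seen in 19 of 29 and 10 of 23 members, against 17 of 98 and 14 of 93 in the reference class. *Tnfrsf4* was seen in 20 of 29 and 14 of 23, against 24 of 98 and 23 of 93. *Ctla4* was seen in 13 of 29 and 18 of 23, against 18 of 98 and 23 of 93. At equal depth the 3 genes were thus still seen in a larger share of members in each library. *Foxp3* itself was left in 9 of 29 and 9 of 23 members, so at this depth a barcode with no *Foxp3* UMI is not shown to lack *Foxp3*.

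**Figure D3:**
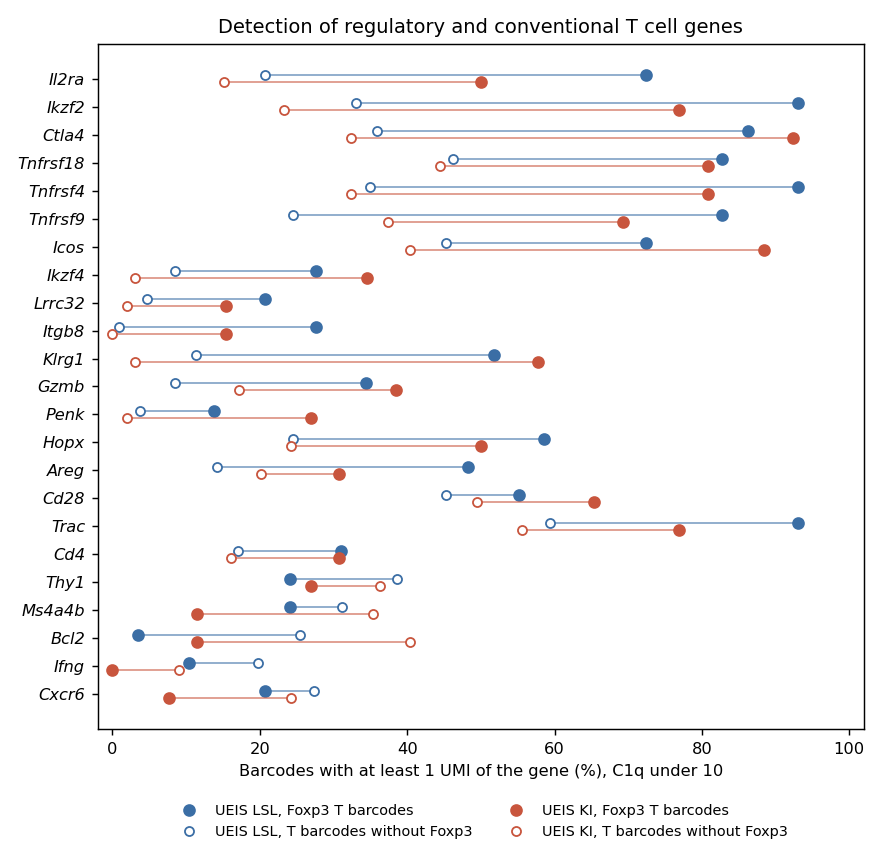
Percent of barcodes with at least 1 UMI of each of 23 genes (x axis) in low-C1q *Foxp3* T barcodes (filled; 29 UEIS LSL, 26 UEIS KI) and low-C1q T barcodes without *Foxp3* (open; 106 and 99), unthinned. Markers of regulatory T cells such as *Ikzf2* (27 of 29 against 35 of 106 in UEIS LSL) are seen more often in members, and *Bcl2* and *Thy1* less often.

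Among effector genes, *Klrg1*, an inhibitory receptor of activated lymphocytes (chromosome 6, 122270596 to 122282882), was at 178 CPM in UEIS LSL members against 34.8, and at 220 against 7.6 in UEIS KI. It was seen in 15 of 29 and 15 of 26 members and in 12 of 106 and 3 of 99 other T barcodes. Its log2 fold was 3.07 (SE 0.51; edgeR adjusted p 0.110). *Penk*, which encodes proenkephalin, had a log2 fold of 2.23, and *Hopx*, a transcription cofactor, and *Tnfrsf1b*, the second TNF receptor, had 1.06 and 1.16 (edgeR adjusted p 0.331, 0.295 and 0.331). *Areg*, the tissue repair factor amphiregulin, was at 326 against 151 CPM in UEIS LSL and 334 against 252 in UEIS KI, a log2 fold of 0.71 that did not pass in UEIS KI.

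Some list genes had counting intervals below 1 in both libraries, though none of those named next passed edgeR's threshold. *Bcl2*, the survival factor, was seen in 1 of 29 and 3 of 26 members against 27 of 106 and 40 of 99 other T barcodes, a log2 fold of -3.23 (SE 0.44; edgeR adjusted p 0.052). *Ifng*, which encodes interferon gamma, gave 3 UMIs in UEIS LSL members and none in UEIS KI members, against 76 and 23, a log2 fold of -3.52 (edgeR adjusted p 0.128). *Klrk1*, the receptor NKG2D, gave 0 and 1 UMIs against 34 and 29. *Thy1*, a surface protein of T cells, had a log2 fold of -1.48, the receptor beta constant gene *Trbc2* had -1.32, and the chemokine receptor *Cxcr6* had -1.82 (edgeR adjusted p 0.256, 0.141 and 0.208). *Trac* and the receptor inhibitor *Cd5* went the other way, at 0.71 and 1.06 (edgeR adjusted p 0.357 and 0.333). The receptor list as a whole was not shifted, with 2 higher and 2 lower of 21 and a median of -0.13.

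Of the 4 genes that edgeR called lower, *Gzmc* and *Ctsk* rested on few barcodes of the reference class. *Gzmc*, another granzyme gene of chromosome 14 (56231441 to 56234656), gave no UMI in members and 434 and 203 UMIs in the others, but in only 3 barcodes of each library, 1 of which held 432. *Ctsk*, the protease cathepsin K, gave 1 and 2 UMIs against 74 and 692, of which 1 UEIS KI barcode held 404. Both had an adjusted p of 0.00595 by edgeR's quasi-likelihood test. The MHC class II genes *Cd74* and *H2-Eb1* had log2 folds of -1.30 (SE 0.14) and -1.62 (SE 0.18) and adjusted p of 0.0331 and 0.0374 by the same edgeR test. Over the alternative settings these p reached 0.193 and 0.234 and the folds -0.25 and -0.34, with a call in 4 of 7 settings each and none when C1q was not limited. *Cd74* was seen in 90 of 106 and 58 of 99 barcodes of the reference class and *H2-Eb1* in 33 and 22. *Cd74* was at 2056 against 4285 CPM in UEIS LSL and 2475 against 6644 in UEIS KI, where macrophage barcodes held 11585 and 3261 CPM. The part of RNA from antigen-presenting cells in this difference was not tested.

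Of the 66 genes higher in both libraries, 23 had over 50% of their member UMIs in 1 barcode in at least 1 library. Of the 32 lower genes 5 had over 50% of the UMIs of T barcodes without *Foxp3* in 1 barcode in at least 1 library. The interferon genes are an example. *Rsad2* and *Ifit3* were among 4 of 33 type I interferon-induced genes that were higher in both libraries, but 1 UEIS LSL barcode held 52 of 63 *Rsad2* UMIs and 1 UEIS KI barcode held all 36. For *Ifit3* 1 barcode held 10 of 11 and 15 of 15 UMIs. The others were *Ddx58* and *Eif2ak2*, each with at most 9 UMIs in a library's members, and 1 gene of the list, *Ms4a4b*, was lower.

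**Figure D4:**
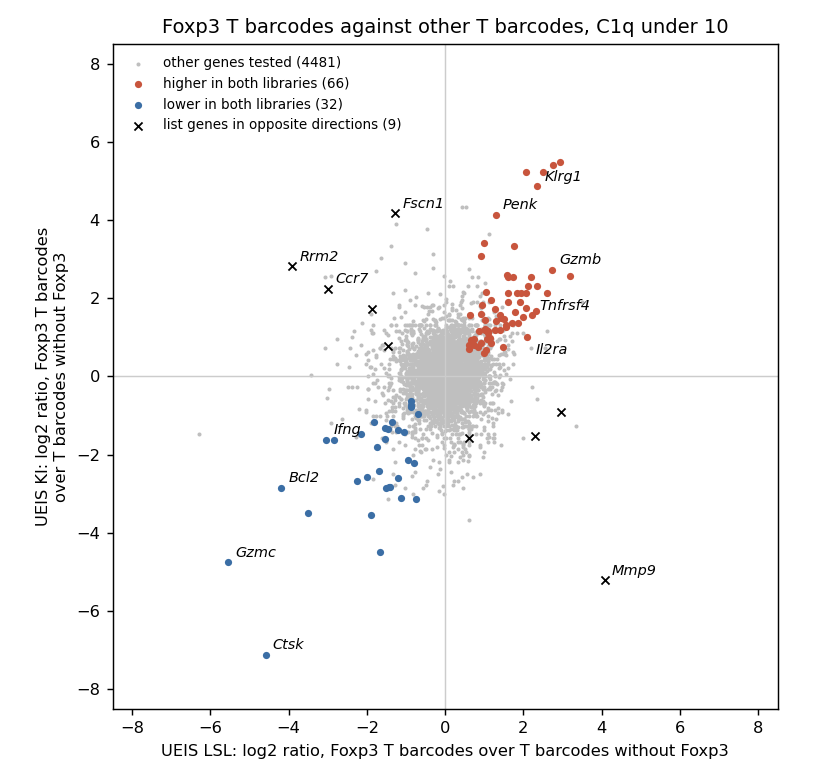
Each point is 1 of 4588 genes, with the log2 ratio of low-C1q *Foxp3* T barcodes over low-C1q T barcodes without *Foxp3* in UEIS LSL (x axis) and UEIS KI (y axis). Red marks the 66 genes higher and blue the 32 lower in both libraries, black crosses the 9 with opposite calls, and grey the other genes; 9 of the 15 identity genes tested are among the red points.

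Without the C1q limit the same contrast held 104 and 51 members against 275 and 177 T barcodes, and edgeR's quasi-likelihood test called 70 higher (0.75%) and 48 lower (0.515%) of 9328 genes. Of the identity genes 11 of 17 passed the threshold, all higher, with a list median of 1.62 against 0.00 over all genes. General T cell genes were higher too. The T cell receptor list had 5 of 21 higher and none lower, with a median of 0.30, and *Trac* and *Cd5* had log2 folds of 0.78 and 1.13. T cell receptor and CD3 genes together gave 900 and 823 CPM in members, against 727 and 768 in the reference class. The part of T cell RNA content in the identity folds was not tested. *Tnfrsf4* had a log2 fold of 2.07, *Il2ra* of 1.85, *Ikzf2* of 1.81, *Ctla4* of 1.57 and *Icos* of 1.0. *Izumo1r*, which encodes the folate receptor FR4 of regulatory T cells, had 2.02, and *Itgb8*, an integrin chain that activates TGF-beta, had 2.0. Of the effector list 9 of 31 were higher and 1 lower.

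The effector genes called in that larger set included *Gzmb* and *Klrg1* again. *Gzmb* had a log2 fold of 2.56, *Klrg1* of 3.07, *Areg* of 1.19, *Gata3*, a transcription factor, of 1.06, and *Itgae*, the integrin CD103, of 1.94. *Penk* was at 125 CPM in UEIS LSL members against 14.6, and at 53.2 against 2.81 in UEIS KI, a log2 fold of 3.24 (SE 0.23). *Tff1*, a trefoil peptide gene, had 3.20. On the lower side stood *Tcf7*, the TCF-1 factor of naive and memory T cells, at -4.25, with 1 UMI in each library's members against 44 and 44 in the others. *Cd40lg*, the helper ligand CD40L, gave 2 and 0 UMIs against 40 and 47, and *Ifng* 8 and 0 against 142 and 28. Fibroblast genes were lower as well, with 5 of 6 tested genes of the fibroblast and tumour list called. *Col1a1* among them had a log2 fold of -5.15, with 13 against 1021 UMIs in UEIS LSL and 2 against 15 in UEIS KI. The libraries did not always share the direction. *Sparc*, also called lower, was at 40.3 against 461 CPM in UEIS LSL but at 63.8 against 21.1 in UEIS KI. *Dcn* was lower in both, with log2 ratios of -2.83 and -2.63. The part of RNA from fibroblasts or tumour cells in the reference class was not tested.

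The third comparison asked how members of the UEIS KI library differed from those of UEIS LSL, the question the title poses for interferon signalling. Over all members 335 of 8401 genes (3.99%) were at least 1.5-fold higher in UEIS KI with a counting interval clear of 1, and 297 (3.54%) were lower. That is 7.52% in either direction, and the median log2 ratio was 0.02. In low-C1q members 153 of 2991 (5.12%) were higher and 186 (6.22%) lower, and in members with much C1q 278 of 7837 (3.55%) were higher and 305 (3.89%) lower, or 7.44% together. Scaled to T cell receptor UMIs in place of the total, the split over all members was 566 higher and 190 lower, with a median of 0.15; that denominator includes the CD3 genes of the rule.

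Of 18 measured identity genes, 2 (*Icos* and *Nt5e*) were higher and 1 (*Entpd1*) lower in UEIS KI over all members, with ratios from -1.51 to 1.12 and a median of 0.15. In low-C1q members none of 13 was higher and 1, *Rgs1*, a regulator of G protein signalling, was lower. *Ikzf2* was at 278 CPM in UEIS LSL and 312 in UEIS KI, *Il2ra* at 97.8 and 108, and *Tnfrsf4* at 338 and 326. Their log2 ratios of 0.17 (-0.09 to 0.42), 0.14 (-0.30 to 0.57) and -0.05 (-0.30 to 0.19) leave room for differences of up to 1.5-fold. In low-C1q members they were -0.22 (-0.67 to 0.22), -0.53 (-1.32 to 0.22) and -0.25 (-0.63 to 0.12), so *Ikzf2* and *Il2ra* changed sign, and in the others 0.05, 0.15 and -0.49 (-0.84 to -0.14). *Tnfrsf18* was at 220 and 312 CPM, a log2 ratio of 0.51 (0.24 to 0.77), and *Ctla4* at 262 and 353, a ratio of 0.43 (0.18 to 0.67). On either side of the C1q limit every interval included 0. *Tnfrsf18* had 0.34 (-0.12 to 0.81) in low-C1q members and 0.26 (-0.08 to 0.60) in the others, and *Ctla4* had 0.14 (-0.24 to 0.53) and 0.05 (-0.30 to 0.39). The limit did not match C1q between libraries, as members above it had medians of 156 UMIs in UEIS LSL and 104 in UEIS KI. *Tnfrsf9* reversed with the C1q level, at 0.54 over all members and -0.22 in low-C1q members.

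*Icos* was at 199 CPM in UEIS LSL members and 303 in UEIS KI members, a log2 ratio of 0.61 (0.33 to 0.88). Counted per barcode it was even, at 3.33 and 3.35 UMIs, though the members' median depths were 13330.5 and 9844 UMIs. By C1q level the log2 ratio was 0.50 (0.04 to 0.97) in low-C1q members and 0.24 (-0.13 to 0.60) in those with much C1q. The macrophage marker list took 4.50% of the UMIs of UEIS LSL members and 3.83% of those of UEIS KI members. Its part in the *Icos* ratio was not tested. The identity genes for the ectoenzymes that together make adenosine went in opposite directions. *Entpd1* (CD39) was at 76.0 and 26.6 CPM, a log2 ratio of -1.51, and *Nt5e* (CD73) was at 62.7 and 137 CPM, a ratio of 1.12. In low-C1q members the ratios were -1.01 (-3.14 to 0.78) and 1.0 (-0.07 to 2.12). Macrophage barcodes held 65.8 and 54.9 CPM of *Entpd1* and 47.4 and 74.1 of *Nt5e*, so their part in the members' values was not tested.

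Genes at least 10 times higher in members than in macrophage barcodes of each library were also examined alone, a limit chosen after the data were seen. Of these 118 genes, 7 were higher in UEIS KI (5.93%) and 4 lower (3.39%), with a median log2 ratio of 0.07. The higher genes were *Icos*, *Cd28*, *Pdcd1*, *Satb1*, *Gzmb*, *Ccdc88c* and *Sytl1*, and the lower ones *Lck*, *Ltb*, *Penk* and *Rgs16*. The genes outside the lists among them were picked by this count alone. Macrophage UMIs stayed in the totals used for scaling, and the shares of members with much C1q were 72.1% and 49.0%. A ratio over all members could thus lie outside those of both C1q levels. *Trac*, for example, had -0.04 over all members, -0.07 in low-C1q members and -0.72 in the others.

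*Lck*, the kinase that starts T cell receptor signalling (chromosome 4, 129548344 to 129573641), was lower in UEIS KI at both C1q levels. It was seen in 72 of 104 UEIS LSL members and 20 of 51 UEIS KI members, at 97.8 and 49.7 CPM, a log2 ratio of -0.98 (-1.61 to -0.40). In low-C1q members the ratio was -1.12 (-2.16 to -0.17) and in the others -1.24 (-2.12 to -0.47). T cell receptor and CD3 genes together were also lower in UEIS KI, at 1806 and 1530 CPM in low-C1q members and 784 and 546 in the others. That sum includes the CD3 genes of the rule. Of the genes outside the rule, *Trac*, *Trbc2* and *Trbc1* had log2 ratios of -0.07, 0.12 and 0.95 in low-C1q members. In the others these were -0.72, -0.26 and -0.89. A single CD3 UMI was seen in 6 of 104 UEIS LSL and 11 of 51 UEIS KI members. The part of T cell RNA content in the *Lck* ratio was not tested. *Rgs16*, a regulator of G protein signalling induced by activation, was seen in 41 of 104 and 10 of 51 members. It was at 78.8 and 24.8 CPM, a log2 ratio of -1.67 (-2.58 to -0.87), with -2.84 in low-C1q members and -1.46 in the others. *Ltb*, which encodes lymphotoxin beta, had a ratio of -0.61 (-0.98 to -0.26), with -0.57 and -0.89 by C1q level and 0.17 when every barcode counted alike. No single barcode carried these 3 differences, whose ratios without the barcode with most UMIs in each library were -1.13, -1.76 and -0.76.

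*Cd28*, the receptor of the second activation signal, was at 66.8 CPM in UEIS LSL members and 135 in UEIS KI members, a log2 ratio of 1.01 (0.58 to 1.44). By C1q level the ratios were 0.62 (-0.08 to 1.33) and 0.68 (0.07 to 1.27). *Pdcd1*, the inhibitory receptor PD-1, was at 41.4 and 74.5 CPM, a ratio of 0.85 (0.26 to 1.41), which was 0.87 in low-C1q members and 0.01 in the others. *Satb1*, a chromatin organiser, was seen in 3 of 29 and 10 of 26 low-C1q members, a log2 ratio of 2.81 (1.02 to 5.22) there and 0.23 in the others. *Gzmb* was at 97.3 and 250.0 CPM, a log2 ratio of 1.36 (1.03 to 1.69), but it was 0.14 (-0.35 to 0.61) without the top barcode of each library and -0.55 in members with much C1q. *Penk* was seen in 26 of 104 and 8 of 51 members. Its ratio was -1.24, or 0.97 when every barcode counted alike. It was -4.70 in members with much C1q (198 against 2 UMIs), while low-C1q members had 20 and 28 UMIs and a ratio of 0.79.

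**Figure D5:**
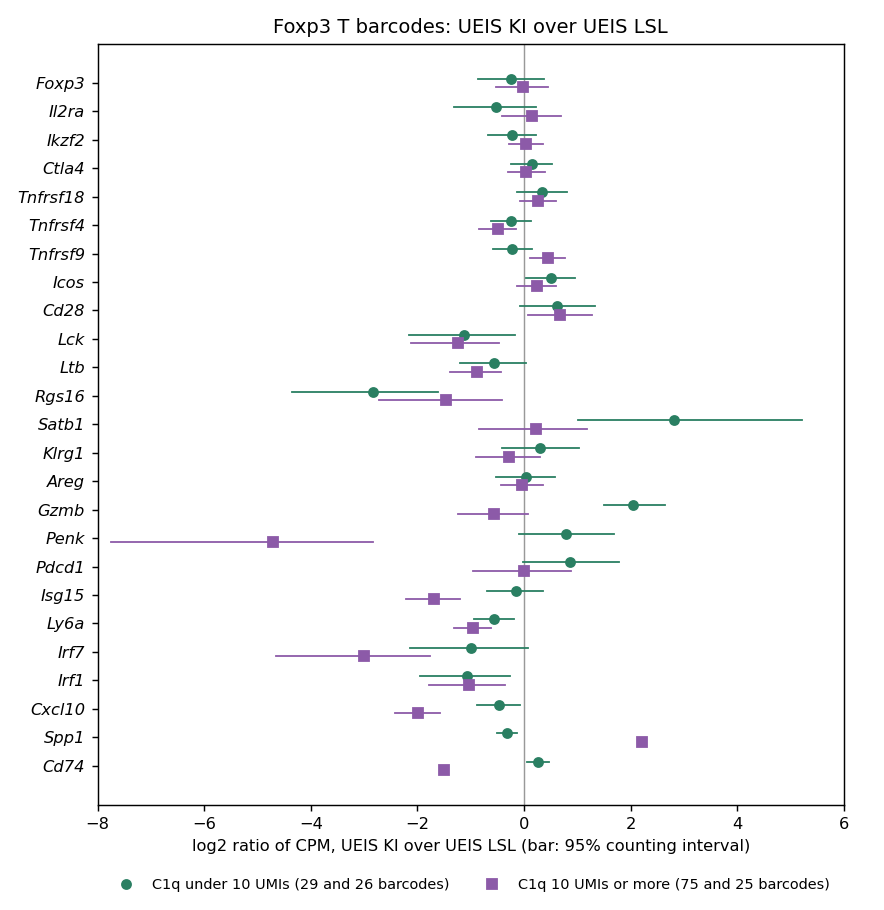
Log2 ratio of UEIS KI over UEIS LSL in CPM for 25 genes, with 95% counting intervals, in *Foxp3* T barcodes with fewer than 10 C1q UMIs (circles; 29 and 26 barcodes) and with 10 or more (squares; 75 and 25). *Lck* and *Rgs16* lie below 0 at both C1q levels, most interferon-induced genes shown lie further below 0 in barcodes with much C1q, and *Penk* and *Gzmb* change side.

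Part of the interferon-induced genes were lower in UEIS KI members. Of 51 measured type I interferon-induced genes none was higher and 22 were lower over all members, with a median log2 ratio of -0.82 against 0.02 over all genes. In low-C1q members 1 of 21 was higher and 5 were lower, with a median of -0.50, and in those with much C1q 31 of 49 were lower, with a median of -1.16. The medians are over different numbers of genes, and the difference between them was not tested. Macrophage barcodes themselves had 41 of 58 lower and a median of -0.72, and low-C1q T barcodes without *Foxp3* had 1 higher and 9 lower of 35 and a median of -0.55. Low-C1q members thus had a median near that of low-C1q T barcodes without *Foxp3*, and the direction was shared by all these classes. The part of macrophage RNA in the members' values was not tested.

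*Isg15*, a ubiquitin-like protein induced by interferon, was at 297 CPM in UEIS LSL members and 161 in UEIS KI members, a log2 ratio of -0.88 (-1.22 to -0.56) that was 0.46 when every barcode counted alike. In low-C1q members it was at 387 and 346 CPM, a ratio of -0.16, and in the others the ratio was -1.68. Macrophage barcodes held less of it, at 98.7 and 41.1 CPM. *Ly6a* (Sca-1) was at 443 and 310 CPM, a ratio of -0.51 (-0.76 to -0.27), with -0.56 and -0.95 by C1q level and 178 and 62.2 CPM in macrophage barcodes. *Irf7*, the transcription factor that amplifies the response, was at 104 and 28.4 CPM, a ratio of -1.87 (-2.71 to -1.13), and -0.99 in low-C1q members. *Isg15* and *Ly6a* were higher in the members of each library than in its macrophage barcodes. These held 47.2 and 26.1 CPM of *Irf7*, and in UEIS KI the members' 28.4 CPM (16 UMIs, interval 16.2 to 46.1) did not differ from that beyond counting error.

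Genes of the interferon gamma response were 12 of 25 lower and 1 higher over all members, with a median of -0.79. In low-C1q members this shrank to 2 of 13 lower, *Iigp1* and *Irf1*, and a median of -0.08. In members with much C1q 14 of 24 were lower, and in macrophage barcodes 20 of 27, with medians of -1.03 and -0.99. *Cxcl10*, a chemokine that draws T cells, was at 534 and 245 CPM over all members, a log2 ratio of -1.13 that was 0.49 when every barcode counted alike and -0.48 in low-C1q members. *Irf1* was at 116 and 67.4 CPM, a ratio of -0.79 (-1.33 to -0.28), which was -1.08 in low-C1q members, with 75 and 36.3 CPM in macrophage barcodes.

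Of the resting and naive T cell list 4 of 11 measured genes were higher in UEIS KI and none lower, with a median of 0.53, where 3.99% of all genes were higher. In members with much C1q 2 of 9 were higher and 1 lower, with a median of 0.21. *Ccr7*, *Ly6c1* and *Satb1* were among them, seen in 11 and 7, 4 and 2, and 28 and 16 members. In low-C1q members 3 of 6 measured genes of this list were higher and none lower, with a median of 0.94. Of the 34 UEIS KI *Ccr7* UMIs there, 29 lay in 1 barcode, also the highest for the dendritic cell gene *Fscn1*. Without the top barcode of each library the *Ccr7* ratio there was 2.69 (-0.47 to 8.25). Proliferation genes *Mki67* or *Top2a* were seen in 40 of 104 (38.5%) and 15 of 51 (29.4%), but in only 4 of 29 and 3 of 26 low-C1q members. Of 29 cell cycle genes 5 were higher and 1, the replication gene *Mcm3* (-1.02), was lower, with a median of 0.37. In low-C1q members 5 of 18 were higher and 1 lower, with a median of 0.41. *Rrm2* among those higher genes had 32 of its 34 UEIS KI UMIs in 1 barcode. In members with much C1q 5 cell cycle genes were higher and 7 lower, with a median of -0.17. *Ube2c* and *Birc5*, mitotic genes, had ratios of 1.03 and 0.89 that became 0.45 and 0.28 without the barcode with most UMIs.

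Over all genes 3.99% were higher and 3.54% lower in UEIS KI members, and a list with 1 gene called is near those shares. The effector list had 5 higher (*Batf*, *Gzmb*, *Hopx*, *Pdcd1* and *S100a4*) and 2 lower (*Il10* and *Penk*) of 31, with a median of 0.18. *Hopx* had a ratio of 1.02 over all members and 0.91 in low-C1q members, while the calcium-binding *S100a4* had 0.80 and -0.43. The cytokine and cytotoxicity list had 2 higher (*Gzmb* and *Ccl5*) and 2 lower (*Fgl2* and *Nkg7*) of 7. The chemokine *Ccl5* had 0.71 over all members, with 143 of its 207 UEIS KI UMIs in 1 barcode, and -1.21 in members with much C1q. *Fgl2*, a secreted suppressive protein, had -1.26, with -1.69 and -1.18 by C1q level. The T cell receptor list had 2 higher and 2 lower of 24 with a median of -0.01, where the lower genes were *Lck* and *Egr2* and the higher *Cd28* and *Nr4a3*. In members with much C1q it had 1 higher and 6 lower, with a median of -0.33. The interleukin 2 and STAT5 list had 1 higher (*Stat5a*, 0.90) and none lower of 16. Chemokine receptors had 1 of 13 lower, *Ccr1* (-0.87), and 1 of 14 helper lineage regulators, *Batf* (0.82), was higher. *Ccr2* was at 380 and 330 CPM. *Ccr8*, a receptor typical of tumour regulatory T cells, was seen in 7 and 2 members, and *Tigit* was seen in none of either library. The immediate early and dissociation stress list had 1 of 19 lower, *Egr1* (-0.74). *Il10*, the suppressive cytokine, was seen in 18 and 6 members, at 34.0 and 10.6 CPM, a log2 ratio of -1.67 (-3.18 to -0.47), which was -0.69 (-2.87 to 1.21) in low-C1q members.

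Markers of other cells differed between the libraries' members as well. Of 24 macrophage markers 1 was higher and 6 lower in UEIS KI over all members, with a median of -0.24, and none was higher and 10 of 22 were lower in low-C1q members, with a median of -0.58. *Spp1*, the macrophage product osteopontin, was at 2124 and 7368 CPM over all members, beside 2593 and 7912 in macrophage barcodes. In low-C1q members its log2 ratio was -0.32, against 1.79 over all members. *Cd74* was at 8749 and 3142 CPM, beside 11585 and 3261, and its ratio of -1.48 became 0.27 in low-C1q members. The neutrophil gene *S100a8* had a ratio of 2.89, *S100a9* gave 0 and 29 UMIs, and the dendritic cell gene *Fscn1* 2.84. No gene of the CD8 and gamma-delta lists reached the 20 UMIs needed.

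Many named genes with the strongest ratios in low-C1q members rested on single barcodes. Among the higher ones, *Rrm2*, a nucleotide synthesis gene, gave 1 and 34 UMIs, 32 of them in 1 UEIS KI barcode. *Ccr7*, the lymph node homing receptor, gave 2 and 34 UMIs (29 in 1 barcode), *Ramp3* 0 and 20 (13 in 1), *Tbc1d4* 1 and 19 (18 in 1), the actin bundler *Fscn1* 18 and 58 (55 in 1) and *Cst3* 225 and 439 (318 in 1). Those 5 genes and *Rgs10* (26 and 67 UMIs) had the same UEIS KI barcode as their highest. *Satb1*, with 3 and 17 UMIs and at most 4 in a barcode, had no such concentration. *Gzmb* has been described, and *Il1b*, a myeloid cytokine, gave 125 and 250 UMIs in 14 and 7 barcodes, beside 1355 and 823 CPM in macrophage barcodes; its log2 ratio was 1.31 here and -0.19 over all members.

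Among the lower ones, *Cxcl3* gave 154 and 2 UMIs, in 6 and 2 barcodes, *Inhba* 86 and 2, *Cd36* 39 and 0, *Slpi* 32 and 1, and *Mmp13* 114 and 17. *Slpi* turned to a log2 ratio of 0.91 (0.36 to 1.45) over all members. *Crabp1* and *Tcim* were each seen in a single UEIS LSL member, with 49 and 21 UMIs. *Hmox1*, haem oxygenase 1, gave 483 and 25 UMIs in 15 and 9 members, a log2 ratio of -3.96 (-4.61 to -3.38) that was -3.94 without the top barcodes. *Plin2*, a lipid droplet protein, gave 164 and 23 UMIs in 20 and 6 members, a ratio of -2.53 (-3.22 to -1.89). *Mmp12*, a macrophage elastase, gave 324 and 24 UMIs. Macrophage barcodes held 653 and 752 CPM of *Hmox1*, 359 and 338 of *Plin2* and 402 and 436 of *Mmp12*, so these genes stood above that level in low-C1q members of UEIS LSL and below it in UEIS KI, and which cells the RNA came from was not tested.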

How the data were processed

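The authors deposited UMI counts per gene and barcode, raw and not normalised, for CD45+ cells of MC38 tumours, 1 library each of UEIS LSL and UEIS KI. The version of Cell Ranger is 2.1.1 per the submitters' processing notes, which give mm10 as build, and 8.0.1 per the file headers. Which annotation was counted is not given in the sources used here. Of 55357 gene identifiers 52081 (94.1%) matched GENCODE vM21 (GRCm38), the source of coordinates. The kept barcodes of UEIS LSL and UEIS KI summed to 92622654 and 99152517 UMIs (medians 8230 and 9004). The libraries shared 34 barcode sequences, none of them among members.

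Counts were summed per library and class and scaled to the class total (CPM). Shares have exact Clopper-Pearson and ratios exact conditional binomial 95% intervals, with a count of 0 set to a floor of 3; they cover counting error only. Ratios between libraries needed 20 UMIs over both and were called at 1.5-fold with an interval clear of 1. Members and T barcodes without *Foxp3* were compared with edgeR 4.0.16 (quasi-likelihood, library as a block, Benjamini-Hochberg over all genes), with DESeq2 1.42.0 as an alternative. The test was tried on simulated counts. Thinning took 1000 UMIs per barcode. Doublets were not removed; leaving out the highest Scrublet scores (0.8% per 1000 barcodes, 726 and 758 barcodes) was an alternative. Python 3.11.15, numpy 2.4.6, pandas 2.3.3, scipy 1.17.1, scanpy 1.11.5 and R 4.3.3 were used.

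The members and the 21 gene lists were chosen with earlier results of these data known. Lists covered regulatory T cell identity, tumour effector, resting, receptor signalling, interleukin 2, cytokine, chemokine receptor, helper regulator, both interferon, cell cycle and stress genes, and markers of other cells. Named genes were list members, the genes called by edgeR, and the 10 highest and 10 lowest ratios in low-C1q members by the interval bound nearest 1, without predicted, mitochondrial, ribosomal, haemoglobin, receptor segment and sex-linked genes and genes higher in macrophage barcodes of either library than in low-C1q members of both.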

Additional observations from a re-analysis of the deposited data

Results flagged for a closer look

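In 9 genes the low-C1q *Foxp3* T barcodes were higher than T barcodes without *Foxp3* in one library and lower in the other, each with a counting interval clear of 1. The difference between libraries was not tested, and most rest on few barcodes. The log2 ratios in UEIS LSL and UEIS KI were -3.0 and 2.24 for *Ccr7*, with 2 against 49 UMIs and 34 against 18, 29 of the 34 in 1 barcode. For *Fscn1* they were -1.28 and 4.18, with 55 of 58 UEIS KI member UMIs in 1 barcode. For *Rrm2* they were -3.91 and 2.82, with 32 of 34 in 1 barcode. For *Sparc*, a matrix protein gene, they were -1.86 and 1.72, with 54 of 56 and 32 of 33 member UMIs in 1 barcode of each library. For *Mmp9*, a matrix metalloprotease gene, they were 4.08 and -5.22, with 11 against 2 UMIs and 1 against 93. For *Il1r2*, a decoy interleukin 1 receptor, they were 2.97 and -0.91, with 23 against 9 UMIs and 17 against 80. For *Il10* they were 2.29 and -1.54, with 8 against 5 UMIs and 4 against 29. For the immediate early gene *Egr1* they were 0.60 and -1.57, with 58 against 117 UMIs, 30 of the 58 in 1 barcode, and 15 against 111. For the interferon-induced *Ifit1* they were -1.47 and 0.77, with 20 against 170 UMIs and 34 against 50.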

How the results depend on the processing

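The log2 ratio of the members' share of all barcodes, -1.04, was -0.17, -0.011 and -0.37 with C1q under 10, 5 and 20 UMIs, -1.57 with at least 2 *Foxp3* UMIs and -0.14 after thinning. It ran from -1.30 to -1.02 with at least 2 CD3 UMIs, at most 5% mitochondrial UMIs, at least 500 genes or doublets left out. Within T barcodes, -0.29 became -0.83 with at least 2 *Foxp3* UMIs and 0.38 after thinning. The 632 genes called between libraries were 339 in low-C1q members and 11 among the 118 T cell genes. The 5 genes called against T barcodes without *Foxp3* were 12 with DESeq2, 3 with DESeq2's size factors, 143 with no filter, 118 with C1q not limited, 1 with no library block, 45 with at least 2 CD3 UMIs and 18 with doublets left out. 3 of the 5 were called in the same direction with C1q not limited. Direction reversed for *Tnfrsf9* (-0.22), *Penk* (0.79), *Spp1* (-0.32) and *Cd74* (0.27) with C1q under 10, where the uncalled *Ikzf2* (-0.22) and *Il2ra* (-0.53) also changed sign, and for *Gzmb* (-0.55) with C1q of at least 10. With every barcode counted alike it reversed for *Ltb* (0.17), *Penk* (0.97), *Isg15* (0.46) and *Cxcl10* (0.49), with at least 2 *Foxp3* UMIs for *Isg15* (0.0091), and without the top barcode for *Rrm2* (-0.27), *Tbc1d4* (-1.42) and *Cst3* (-0.28). The cause was not tested. Over single genes, gene list medians and all settings 437 values stayed, 80 moved, 31 passed and 9 no longer passed the threshold. Leaving out a library gives a fold with no test. No paired analysis was possible because each group held 1 library. *Foxp3* UMIs per barcode, mostly 1 or 2, limit what the depth can show.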
